A study of Mus musculus with 62 samples.

Results

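Mouse primordial germ cell-like cells that had been expanded in culture (d4c5) were compared with the first cells of the series that the labels call prospermatogonia-like (m0), as 2 libraries against 2 libraries of the 62 in the series. The libraries were chosen by their sample titles, and only nuclear genes with a read count entered the comparison. Both groups are labelled as germ cells derived from embryonic stem cells of strain B6C3(Cg) × C57BL/6, and both carried the reporter transgenes Prdm1-mVenusTg/0, Dppa3-ECFPTg/0 and mvh(Ddx4)-RFPTg/0, so no library lacks the reporters. The d4c5 cells were sorted as BV+; SC+, that is, by reporters of Prdm1 and Dppa3. Per the labels' protocols, reconstituted testes were made from PGC-like cells: 10000 PGC-like cells were mixed in each well with 20000 somatic cells of E12.5 ICR testes from which germ cells had been removed, and kept afloat for 2 days with 10 µM forskolin and 10 µM rolipram before culture at a gas-liquid boundary. The labels do not tie m0 to a point of this culture, and the gate by which m0 cells were sorted is not stated in the sources used here. Co-culture with somatic cells, medium, floating aggregation, time and gate therefore cannot be told apart in the comparison.

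Primordial germ cells are the fetal founders of sperm and eggs. In the embryo they enter the gonad, switch on genes such as Dazl and Ddx4 that are kept silent by promoter DNA methylation in other cells, and in a testis become prospermatogonia, which later stop dividing and lay down new DNA methylation with the help of piRNAs. Sertoli cells, the supporting cells of the testis cord, surround them and direct the male path.

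Each library came from 1 ng of total RNA and covers the 3′ ends of transcripts. The 4 libraries held 1764379 to 2188173 reads in nuclear genes and 13576 to 15403 genes with a read. Mitochondrial genes took 3.95% and 9.45% of nuclear and mitochondrial reads in d4c5 replicates 1 and 2, and 5.11% and 9.68% in m0 replicates 1 and 2, so replicate 2 was the higher in both groups. Between the 2 libraries of a group, counts differed by more than sampling alone would give. Chi-squared per degree of freedom was 16.8 in d4c5 and 8.98 in m0. The labels do not say that the libraries of a group came from separate cultures, so the spread between them may be technical. A p-value below rests on a spread within groups that was estimated over all 31 groups of the 62 libraries, not over d4c5 and m0 alone. Levels below are nuclear counts scaled to a total of 1000000 after TMM (CPM), and "rose" and "fell" are kept for genes with an adjusted p below 0.05 in edgeR's quasi-likelihood test and a change of at least 2-fold.

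Of 16008 genes tested, 366 were higher in m0 (2.29%) and 82 were lower (0.512%). The filter used all 62 libraries, and 1709 of the tested genes had no read in any of these 4, so they could not be called. The median log2 fold change over all tested genes was 0. It was 0.026 over the 9919 tested genes that reached 5 RPM in 2 of the 4 libraries. Of the genes that rose, 90 had no read in either d4c5 library, and 173 reached a mean of 20 CPM in m0. Of those that fell, 2 had no read in m0, and 59 had a mean of at least 20 CPM in d4c5. The libraries of the groups did not overlap for 365 of the 366 and for all 82 called genes. With 2 libraries a group this follows largely from the calls themselves, so it is no separate support. The same share over all tested genes is not given here. The number of genes that rose was 188 without d4c5 replicate 1 and 206 without m0 replicate 2. The number that fell was 53 without d4c5 replicate 1, 49 without m0 replicate 1 and 54 without m0 replicate 2. In all 4 fits that left out a library, 120 of the 366 and 9 of the 82 were called.

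**Figure D1:**
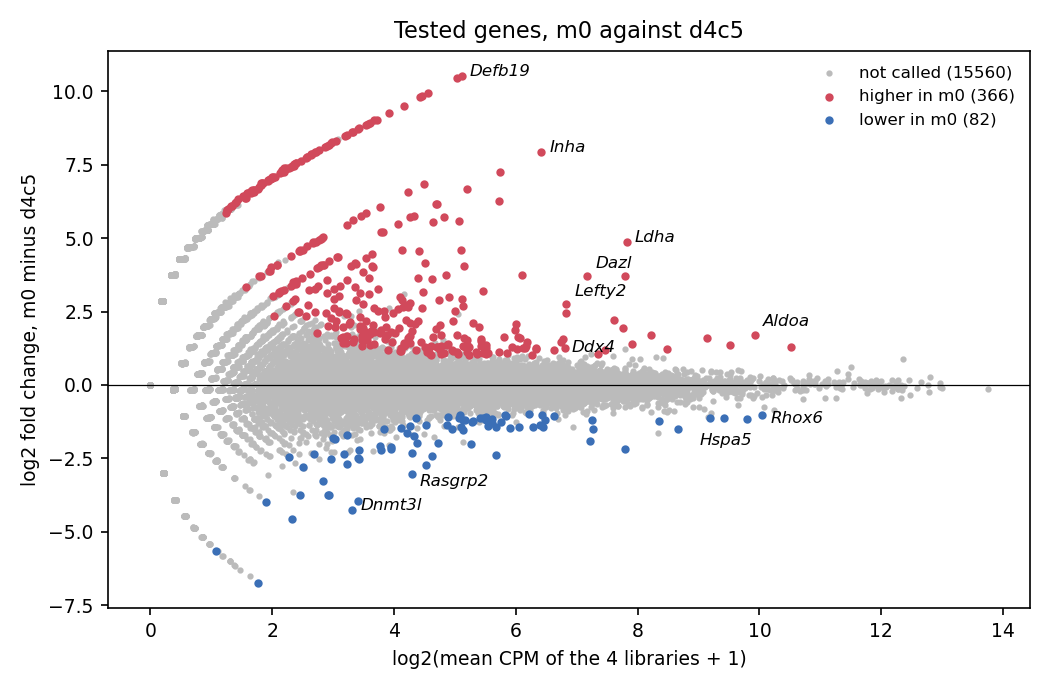
Log2 fold change of m0 against d4c5 for each of the 16008 tested genes (vertical axis) against the log2 of the mean CPM of the 4 libraries plus 1 (horizontal axis), with 366 genes higher in m0 in red and 82 lower in blue. The upper curved edge is made of genes with no read in d4c5, whose fitted fold changes depend on the prior count.

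Transcripts of testis somatic cells appeared in m0. Of 17 tested Sertoli cell markers, 12 rose and none fell, and the summed level of the 20 listed genes was 112 and 183 CPM in d4c5 against 922 and 1108 CPM in m0. Inha, the inhibin alpha subunit, had 1.33 and 0 CPM in d4c5 and 161 and 176 CPM in m0, a rise of 261-fold (95% counting interval 71.9 to 2159) with an adjusted p of 1.83e-15. The zinc-finger factors Gata4 and Wt1, both needed for the somatic gonad, had no read in d4c5 and stood at 40.9 and 43.4 CPM and 16 and 27.7 CPM in m0, at least 43.5-fold and 23.1-fold higher against a floor of 3 reads over both d4c5 libraries. Sox9, the transcription factor that sets the Sertoli fate, went from 0 reads to 12.8 and 34.5 CPM, at least 25.4-fold (adjusted p = 0.000126). No d4c5 library reached the level of the lower m0 library for any of these genes, which follows largely from the calls.

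The other Sertoli cell markers that rose were Clu, which encodes clusterin and was already present in d4c5 (27.3 and 35.4 CPM, against 391 and 432 CPM in m0), Cst9, Dhh, Mro, Ptgds, Inhbb, Gstm6 and Nr5a1. Amh, the Müllerian hormone made by fetal Sertoli cells, had no read in any of the 4 libraries. The fitted median log2 fold change of the tested Sertoli markers was 5.25, and 4.45 over the 15 with more than 3 reads in a group when genes at 0 were set at their bound, against 0 and 0.05 for all genes taken in these ways. The call of Nr5a1 was lost without d4c5 replicate 1 or m0 replicate 2 (adjusted p = 0.0827 and 0.0739).

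Of 5 tested Leydig cell markers, 2 rose. Star, which brings cholesterol into the mitochondrion for steroid synthesis, went from 0 reads to 18.52 and 38.2 CPM, at least 30.2-fold (adjusted p = 2.2e-06), and Cyp11a1, which makes the first steroid from it, from 0 reads to 14.7 and 27.7 CPM, at least 22.5-fold (adjusted p = 0.00014). Insl3 and Lhcgr, 2 defining Leydig genes, had no read in the 4 libraries. The summed level of the 7 Leydig markers was 0 in both d4c5 libraries and 39.6 and 90.5 CPM in m0.

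Stromal markers gave 2 rises among 22 tested genes, those of the collagen genes Col6a2 (0 reads against 8.94 and 9.41 CPM, at least 9.46-fold, adjusted p = 9.7e-05) and Col1a1 (0 reads against 1.28 and 13.1 CPM, at least 7.98-fold, adjusted p = 0.0183). The test did not call Col1a1 without d4c5 replicate 1, d4c5 replicate 2 or m0 replicate 2 (adjusted p = 0.127 to 0.564). A further 18 stromal markers lay above 0 without passing the test, and 11 of the 22 had no read in d4c5 against 1 in m0. Their fitted median log2 fold change was 3.10, and 1.70 over the 17 with more than 3 reads in a group and genes at 0 at their bound. The count of 2 was 9 with limma at a pseudocount of 0.5 and 1 with DESeq2. The summed stromal level was 799 and 975 CPM in d4c5 and 893 and 1087 CPM in m0, most of it from Fn1 and Sparc, so the sum says little of the other members. None of 12 endothelial and none of 17 macrophage and blood markers passed the test, and the macrophage genes C1qa, C1qb, C1qc and Ptprc had no read. Of the endothelial markers, Tek was at 10.6 and 10.1 CPM in d4c5 and 2.55 and 2.09 CPM in m0 (adjusted p = 0.0999) and Eng at 9.31 and 12.6 CPM in d4c5 and 6.38 and 3.14 CPM in m0 (adjusted p = 0.423). The part of somatic RNA in the rises reported below was not tested, and in bulk RNA more cells of a type and more RNA per cell cannot be told apart.

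The 10 highest log2 fold changes selected by the naming rule all came from genes with 0 reads in both d4c5 libraries. Besides Gata4, Star, Cst9 and Sox9 they were Defb19, a beta-defensin gene at 31.3 and 103 CPM in m0 (at least 72.8-fold), Gatm, which makes the precursor of creatine, at 36.4 and 90.5 CPM (at least 68-fold), and Akr1cl, an aldo-keto reductase gene, at 33.8 and 57 CPM (at least 47.9-fold). The signalling ligand gene Wnt6 stood at 33.2 and 48.6 CPM (at least 42.9-fold), Kctd14 at 28.7 and 38.7 CPM (at least 35.2-fold) and the cystatin gene Cst12 at 19.8 and 25.1 CPM (at least 23.4-fold). All 10 had an adjusted p of at most 0.000335, and all 10 calls held when single libraries were left out.

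Leaving the 7 lists of somatic markers out of the count took 17 genes from those that rose and 1 from those that fell, which left 349 and 81. The lists hold only some of the genes that somatic cells use.

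**Figure D2:**
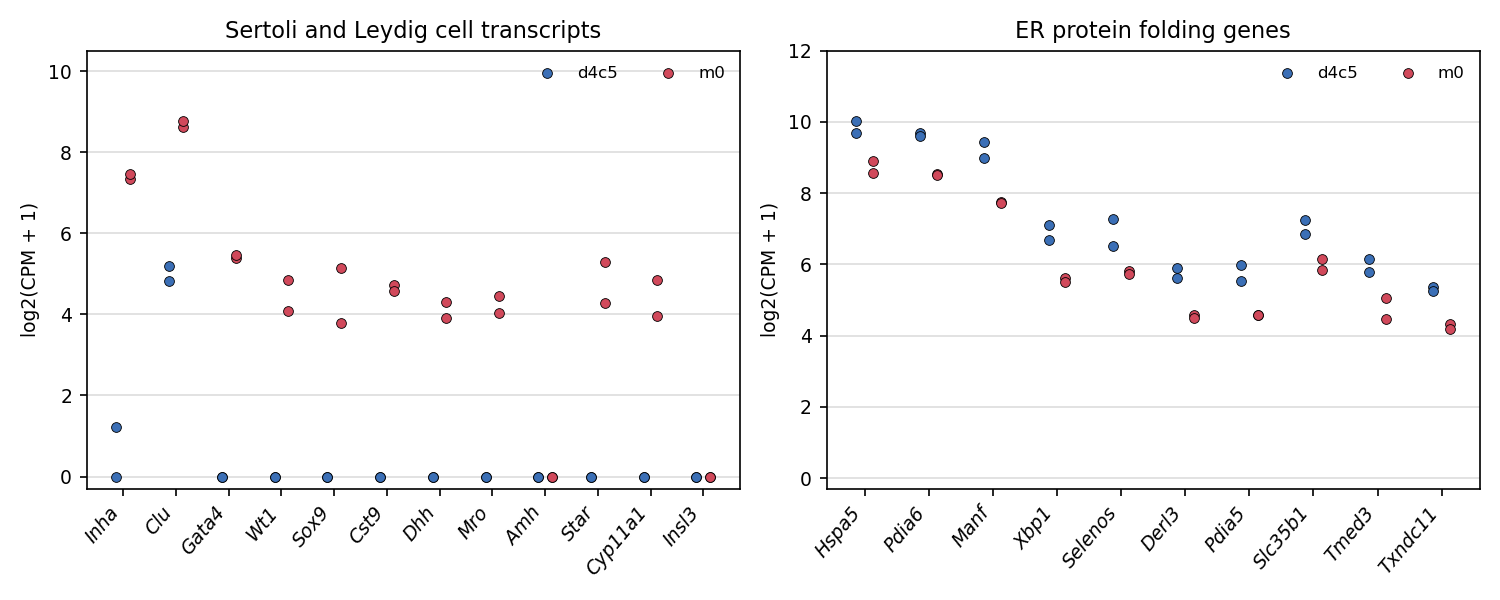
Level in each library, as log2(CPM + 1), of Sertoli and Leydig cell genes (left) and of genes of protein folding in the endoplasmic reticulum (right), with d4c5 in blue and m0 in red and 1 point per library. On the left, Gata4, Wt1, Sox9, Cst9, Dhh, Mro, Star and Cyp11a1 were at 0 in d4c5. Amh and Insl3 were at 0 in all 4 libraries. On the right only genes that fell are drawn. That both m0 libraries lay below both d4c5 libraries for each of them comes with this choice.

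Several core germ cell genes rose in m0, and more of them did not pass the test. Of 30 tested core germ cell genes, most of them known to be held silent by promoter methylation, 9 rose and none fell, with a median log2 fold change of 1.24 (1.21 over the 27 with more than 3 reads in a group and genes at 0 at their bound). A further 18 lay above 0 without passing. Their summed level was 526 and 504 CPM in d4c5 and 1404 and 1361 CPM in m0. The count of 9 was 4 with DESeq2 on the 4 libraries and 15 with limma at a pseudocount of 0.5. The list was put together with earlier results of these libraries known.

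Dazl, an RNA-binding protein that licenses primordial germ cells for sexual differentiation, was at 21.3 and 19.6 CPM in d4c5 and 218 and 315 CPM in m0. The log2 fold change was 3.71 ± 0.53 (SE, adjusted p = 1.63e-05), and the lower m0 library held about 10 times the level of either d4c5 library. Ddx4, the vasa RNA helicase whose promoter also drives the RFP reporter, went from 49.9 and 60.0 CPM to 156 and 167 CPM, a log2 fold change of 1.55 ± 0.20 (SE, adjusted p = 1.54e-07). The gate of m0 is not stated in the sources used here. A part of sorting by this reporter in the Ddx4 level of m0 was not tested, here or in the other lists with Ddx4. For Dazl and Ddx4 the libraries of a group lay close together. The groups did not overlap, which follows largely from the calls.

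Mov10l1, a helicase that feeds precursors into the piRNA pathway, was at 15.3 and 13.3 CPM in d4c5 and 77.9 and 47.6 CPM in m0, a log2 fold change of 2.12 ± 0.28 (SE, adjusted p = 1.58e-07). Stk31, a germ cell gene with a Tudor and a kinase-like domain, went from 18.6 and 29.7 to 104 and 99.4 CPM, a log2 fold change of 2.07 ± 0.27 (SE, adjusted p = 3.69e-07). Asz1, a component of the germ granule that works with piRNAs, went from 9.31 and 8.22 to 30.6 and 24.1 CPM, a log2 fold change of 1.63 ± 0.27 (SE, adjusted p = 2.03e-05). In each case both m0 libraries were above both d4c5 libraries, which again follows largely from the calls.

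The other members that rose were Stag3, a cohesin subunit of meiotic chromosomes (41.9 and 34.1 to 126 and 84.2 CPM), Zcwpw1, a reader of histone methylation in meiosis (22.6 and 29.1 to 75.3 and 50.2 CPM), Fkbp6, a co-chaperone of piRNA loading (55.9 and 39.8 to 124 and 98.3 CPM), and Tdrkh, the scaffold of piRNA trimming (35.2 and 37.3 to 76.6 and 79 CPM). Their log2 fold changes lay between 1.10 and 1.46. Of the 9 calls, those lost when a library was left out were Zcwpw1 without m0 replicate 1 (adjusted p = 0.0605) and Fkbp6 without d4c5 replicate 2 (log2 fold change 0.96).

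The levels of these genes at other stages are given as values. Dazl was at 469 and 1338 CPM in the next culture stage, m3, and at 1300 and 1217 CPM in germ cells of E14.5 testes. Ddx4 was at 339.8 and 470.3 CPM at m3 and 1108 and 1153 CPM at E14.5, and Asz1 at 43.3 and 53.9 CPM at m3 and 449.8 and 357 CPM at E14.5. For all 3 genes both E14.5 libraries lay above both m0 libraries. The E14.5 cells come from ICR by C57BL/6N crosses and not from stem cells.

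**Figure D3:**
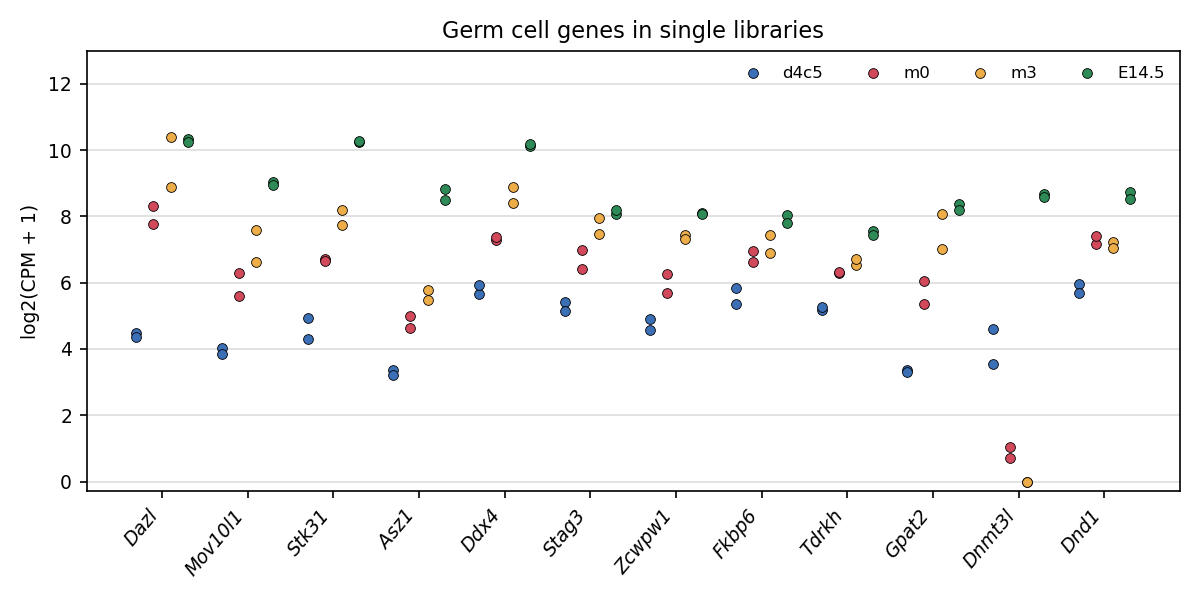
Level in each library, as log2(CPM + 1), of the core germ cell genes that rose, of the piRNA gene Gpat2, and of Dnmt3l and Dnd1, with 1 point per library for d4c5, m0, m3 and germ cells of E14.5 testes. Only genes that rose or fell are drawn. In all of them but Dnmt3l both m0 libraries lay above both d4c5 libraries, which comes largely with this choice. Dnmt3l was lower in m0 than in d4c5 and at 0 in m3.

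The promoters of 2 of the called genes are printed, since promoter methylation is known to keep many genes of this list silent. The sequences run 5′ to 3′ on the strand of the gene, from 250 bases before the start to 50 bases after it, in RefSeq's tables on GRCm38.p6, Ddx4 at chr13:112652261-112652560 on the minus strand and Stk31 at chr6:49395289-49395588 on the plus strand. Capitals mark the E-box CACGTG, which reads the same on both strands and has a CpG at its centre. Stk31 has 2 starts in RefSeq's tables, and a start with the most matches was printed.
Ddx4: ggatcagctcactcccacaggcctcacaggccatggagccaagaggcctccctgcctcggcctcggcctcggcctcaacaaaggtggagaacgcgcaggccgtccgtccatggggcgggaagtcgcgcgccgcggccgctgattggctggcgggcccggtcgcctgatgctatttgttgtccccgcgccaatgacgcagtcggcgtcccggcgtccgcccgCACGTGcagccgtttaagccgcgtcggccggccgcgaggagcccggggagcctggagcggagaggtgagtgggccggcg
Stk31: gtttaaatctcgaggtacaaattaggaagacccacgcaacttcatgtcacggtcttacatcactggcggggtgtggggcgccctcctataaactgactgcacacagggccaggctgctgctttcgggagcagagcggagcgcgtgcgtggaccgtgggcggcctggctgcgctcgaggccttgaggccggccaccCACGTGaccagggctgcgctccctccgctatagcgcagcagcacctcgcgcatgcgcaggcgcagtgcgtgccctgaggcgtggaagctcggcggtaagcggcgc
Of 27 listed core germ cell genes with a promoter in the tables, 15 held CACGTG (55.6%), against 1409 of 12535 tested genes with a promoter (11.2%) and 30 of the 284 such genes that rose (10.6%). The E2F-type motif GCGGGAA, searched on both strands, was in 9 of the 27 (33.3%) and in 9.08% of all. Both matches are descriptions of these windows, and a match is neither a binding site nor a cause.

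In the list of piRNA and de novo methylation genes, 6 of 26 tested members rose and 1 fell, with a median log2 fold change of 0.58. Ddx4, Mov10l1, Asz1, Fkbp6 and Tdrkh are in both lists. The sixth was Gpat2, a mitochondrial acyltransferase gene needed for piRNAs, which went from 9.31 and 8.85 CPM to 65.1 and 40.3 CPM, a log2 fold change of 2.52 ± 0.41 (SE, adjusted p = 5.24e-05).

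The member that fell was Dnmt3l, which helps prospermatogonia to set new DNA methylation. It was at 10.6 and 23.4 CPM in d4c5 and 0.638 and 1.05 CPM in m0, which rests on 53 reads against 3, a ratio of 19.9-fold (95% counting interval 6.45 to 99.6) with an adjusted p of 0.00691. It was also the only one of 17 tested DNA methylation and demethylation enzyme genes to pass the test, and the E14.5 libraries held 408 and 387 CPM. The threshold was not reached by Dnmt3l without d4c5 replicate 2, m0 replicate 1 or m0 replicate 2 (adjusted p = 0.0661 to 0.105). Among the other enzyme genes Gadd45a was at 81.1 and 61.9 CPM in d4c5 and 33.8 and 58 CPM in m0 (adjusted p = 0.357) and Tdg at 69.1 and 73.9 CPM in d4c5 and 54.3 and 47.6 CPM in m0 (adjusted p = 0.357).

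Of 18 tested male germ cell and Nodal genes, 3 rose and 1, Dnmt3l, fell. Lefty2 is a target and feedback inhibitor of Nodal, a TGF-beta family ligand with a role in fetal male germ cells. It went from 31.9 and 26.5 CPM to 191 and 201 CPM (log2 fold change 2.75 ± 0.30 (SE, adjusted p = 3.57e-09)). Dnd1, an RNA-binding protein that germ cells need to survive, also rose, with 61.8 and 50.6 CPM in d4c5 and 143 and 169 CPM in m0 (log2 fold change 1.48 ± 0.23 (SE, adjusted p = 6.74e-06)). Both calls held in the 4 fits that left out a library. In d4, Lefty2 was at 203 and 219 CPM, so that d4c5 was the lowest of d4, d4c5, m0 and m3.

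Nanos2, the RNA-binding protein that fixes the male fate, had no read in d4c5 and 3 reads in m0, all in replicate 1. Its E14.5 level was 88.3 and 55.9 CPM. A difference was not detectable at this depth, where 3 reads over both d4c5 libraries would be 0.972 CPM.

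Meiotic prophase genes gave 1 rise among 31 tested members, that of Stag3, which is also in the germ cell list. Their median log2 fold change was 0.80, and 23 further members lay above 0 without passing the test. Sycp3, of the synaptonemal complex, was at 6.65 and 11.4 CPM in d4c5 and 31.3 and 22 CPM in m0 (adjusted p = 0.173) and Hspa2, a chaperone of spermatocytes, at 2.66 and 3.16 CPM in d4c5 and 8.94 and 4.71 CPM in m0 (adjusted p = 0.388).

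Of 26 tested genes of undifferentiated spermatogonia, 4 rose. They were Ddx4, the laminin receptor subunit Itga6 (23.3 and 10.7 to 53.6 and 77.4 CPM, log2 fold change 1.96 ± 0.27 (SE, adjusted p = 5.62e-07)), the transcription factor Lhx1 (7.31 and 3.79 to 16 and 27.2 CPM, log2 fold change 1.98 ± 0.51 (SE, adjusted p = 0.016)) and Egr2, whose rise rests on 1 read against 21 (18.6-fold, 95% counting interval 3 to 771, adjusted p = 0.0328). Of the 21 reads of Egr2 in m0, 20 were in replicate 2, and m0 replicate 1 and d4c5 replicate 2 had 1 read each. Without m0 replicate 2 its log2 fold change was 0.87, against 4.02 with it. No longer called were Lhx1 and Egr2 without d4c5 replicate 1, d4c5 replicate 2 or m0 replicate 2 (adjusted p = 0.0653 to 1).

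Few genes that define primordial germ cells passed the test. Of 17 tested members, Dnd1 alone rose and none fell, and the median log2 fold change was 0.10. Prdm1, a repressor that sets the germ cell fate, was at 63.8 and 167 CPM in d4c5 and 101 and 148 CPM in m0, and Dppa3, a protector of methylation in early development, at 1668 and 1102 CPM in d4c5 and 1674 and 1468 CPM in m0. The sort of d4c5 used reporters of both genes, so their levels in d4c5 are no finding. Nanos3, which keeps the cells alive, was at 24.6 and 9.48 CPM in d4c5 and 20.4 and 16.7 CPM in m0, and Kit, the receptor of stem cell factor, at 259 and 157 CPM in d4c5 and 251 and 219 CPM in m0, with overlapping libraries, without passing the test (adjusted p = 1 and 0.868). The transcription factor gene Tfap2c was at 216 and 162 CPM in d4c5 and 124 and 134 CPM in m0 (adjusted p = 0.349).

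None of 19 tested pluripotency genes passed the test, with a median log2 fold change of -0.14. Klf4 was at 1.99 and 4.42 CPM in d4c5 and 7.66 and 12.6 CPM in m0 (adjusted p = 0.401), and Klf2 at 286 and 139 CPM in d4c5 and 166 and 87.3 CPM in m0 (adjusted p = 0.242). For the background of such counts, in this and the other lists, 2.80% of all tested genes were called in either direction. Of all tested genes, 2.29% rose and 0.512% fell. A single call in a list of about this size therefore says little of the list.

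Transcripts of dividing cells were present in both groups. Mki67, a marker of cycling cells, was at 174 and 296 CPM in d4c5 and 342 and 346 CPM in m0 (adjusted p = 0.309). Of 38 proliferation genes, 1 rose, the cyclin gene Ccnd2, with 2 reads in d4c5 against 91 in m0, 40.4-fold (95% counting interval 10.9 to 338) (adjusted p = 0.000203). Ccnd2 was at 71.9 and 46.9 CPM in d4, 13.4 and 36.6 CPM in m0 and 6.80 and 8.06 CPM in m3. Of these stages d4 was thus the highest and d4c5 the lowest. Ccne1, a cyclin of the start of S phase, was at 186 and 130.2 CPM in d4c5 and 97.7 and 85.2 CPM in m0, with a log2 fold change of -0.79 that did not reach 2-fold (adjusted p = 0.0292), and Cdc6, which loads the replication helicase, at 62.5 and 49.3 CPM in d4c5 and 31.3 and 31.9 CPM in m0 (adjusted p = 0.131). None of 9 tested CDK inhibitor and Rb family genes passed, with Cdkn1c at 14.6 and 6.32 CPM in d4c5 and 12.8 and 5.23 CPM in m0 and Rb1 at 18 and 28.4 CPM in d4c5 and 26.8 and 27.7 CPM in m0.

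Several glycolysis genes rose in m0. Glycolysis turns glucose into pyruvate and, where lactate dehydrogenase reduces it, into lactate, which monocarboxylate transporters carry out of the cell. Of 20 tested genes, 10 rose and none fell, with a median log2 fold change of 1.24, and their summed level was 8036 and 7194 CPM in d4c5 and 16321 and 13763 CPM in m0. Without d4c5 replicate 1 the count was 6. Of 28 tested genes of the response to low oxygen, 9 rose and none fell, with a median of 1.15, and the count was 5 without d4c5 replicate 1 and 5 without m0 replicate 1. Ldha, Pgk1 and Slc16a3 rose as members of both lists.

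Ldha, the lactate dehydrogenase subunit of glycolytic tissues, was at 17.3 and 12.6 CPM in d4c5 and 455 and 416 CPM in m0. Its log2 fold change was 4.86 ± 0.32 (SE, adjusted p = 3.09e-15), and no d4c5 library came near an m0 library. Slc16a3, the monocarboxylate transporter MCT4 that exports lactate, had 3 reads in d4c5 (0.665 and 1.26 CPM) and 184 in m0 (60.0 and 47.1 CPM), a rise of 54.4-fold (95% counting interval 18.3 to 266) with an adjusted p of 1.16e-07. Both calls held without any single library.

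Several enzymes of the chain between glucose and pyruvate also rose. Tpi1, which interconverts the triose phosphates, went from 72.5 and 64.5 CPM to 327 and 315 CPM, a log2 fold change of 2.23 ± 0.37 (SE, adjusted p = 0.000119). Pfkl, a subunit of the committed step, went from 8.64 and 9.48 to 44.7 and 73.7 CPM, a log2 fold change of 2.71 ± 0.57 (SE, adjusted p = 0.00162). The aldolase genes Aldoc (3.32 and 5.69 to 27.5 and 32.9 CPM, log2 fold change 2.73) and Aldoa (479 and 427 to 1629 and 1336 CPM, log2 fold change 1.71) both rose.

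Pkm, which makes pyruvate, went from 943 and 734 CPM to 2355 and 1795 CPM, a log2 fold change of 1.31 ± 0.19 (SE, adjusted p = 1.35e-06). Pgk1, which makes the first ATP of the chain, went from 497 and 333 to 1113 and 994 CPM, a log2 fold change of 1.34 ± 0.38 (SE, adjusted p = 0.0373). Pkm, Aldoa, Pgk1 and Ldha are 4 of the 5 genes with the largest rise in CPM, and the fifth was Gstm1, a glutathione transferase gene (275 and 281 to 875 and 811 CPM, adjusted p = 3.69e-07). Eno1 and Hk2, the enolase and a hexokinase, had log2 fold changes of 1.18 and 1.37. Near-identical copies of several of these genes (processed pseudogenes, and paralogs of Gstm1) lie elsewhere in the genome, and the sharing of reads among them is not stated in the sources used here.

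Of the low-oxygen genes outside glycolysis, Bnip3, which marks mitochondria for removal, went from 35.2 and 34.1 CPM to 177 and 203 CPM, a log2 fold change of 2.46 ± 0.44 (SE, adjusted p = 0.000451). Egln1, the oxygen sensor that hydroxylates HIF, went from 24.6 and 29.1 to 100.2 and 95.2 CPM, a log2 fold change of 1.86 ± 0.25 (SE, adjusted p = 1.74e-07). Ak4, a mitochondrial adenylate kinase gene, went from 3.32 and 5.69 to 24.3 and 26.1 CPM, a log2 fold change of 2.47 ± 0.50 (SE, adjusted p = 0.000975). The others were Ndrg1, P4ha1 and Ankzf1. Calls were lost for Pfkl without d4c5 replicate 1 or m0 replicate 2 (adjusted p = 0.0573 to 0.0577), Pgk1, Eno1 and Ndrg1 without any one of the 4 libraries (adjusted p = 0.0621 to 0.259), Hk2 without d4c5 replicate 1, d4c5 replicate 2 or m0 replicate 2 (adjusted p = 0.0949 to 0.502), Ak4 without d4c5 replicate 1 (adjusted p = 0.0734) and P4ha1 and Ankzf1 without d4c5 replicate 1, d4c5 replicate 2 or m0 replicate 1 (adjusted p = 0.0646 to 0.386).

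Levels at neighbouring stages are set beside these as values. Ldha was at 272 and 217 CPM in d4, the PGC-like cells before expansion, and at 26.3 and 24.7 CPM at m3, so that of these 4 stages m0 was highest and d4c5 lowest. Slc16a3 was at 26 and 9.55 CPM at d4 and 7.64 and 7.56 CPM at m3, and Tpi1 at 177 and 163 CPM at d4 and 63.7 and 45.9 CPM at m3. Per the labels' protocols, d4 cells were taken from floating aggregates. Sertoli markers were at 922 and 1108 CPM in sum in the same m0 libraries, and their part in the glycolysis values was not tested.

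**Figure D4:**
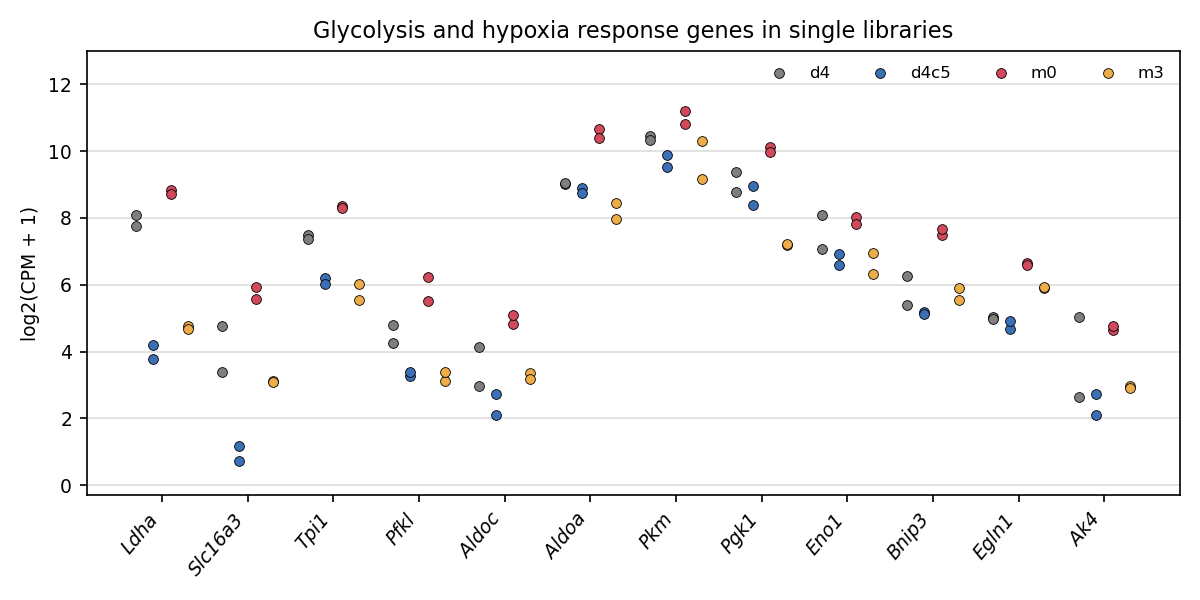
Level in each library, as log2(CPM + 1), of glycolysis genes and of Bnip3, Egln1 and Ak4 of the response to low oxygen, with 1 point per library for d4, d4c5, m0 and m3. Only genes that rose are drawn. That both m0 libraries lay above both d4c5 libraries for each of them comes with this choice. Ldha was at 455 and 416 CPM in m0 and 26.3 and 24.7 CPM in m3.

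The promoters of Ldha and Slc16a3 are printed because these genes had the largest changes of the 2 lists. They come from RefSeq's tables on GRCm38.p6, Ldha at chr7:46845554-46845853 and Slc16a3 at chr11:120948817-120949116, both on the plus strand, and capitals mark ACGTG on either strand (CACGT on the printed strand where the match is on the other), the core of the element bound by HIF.
Ldha: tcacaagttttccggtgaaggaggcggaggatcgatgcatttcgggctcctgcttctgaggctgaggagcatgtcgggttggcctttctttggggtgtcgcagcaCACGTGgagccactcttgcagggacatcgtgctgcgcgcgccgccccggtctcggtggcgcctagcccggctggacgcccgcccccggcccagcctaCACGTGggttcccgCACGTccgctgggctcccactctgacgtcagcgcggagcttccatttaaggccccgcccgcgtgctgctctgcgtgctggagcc
Slc16a3: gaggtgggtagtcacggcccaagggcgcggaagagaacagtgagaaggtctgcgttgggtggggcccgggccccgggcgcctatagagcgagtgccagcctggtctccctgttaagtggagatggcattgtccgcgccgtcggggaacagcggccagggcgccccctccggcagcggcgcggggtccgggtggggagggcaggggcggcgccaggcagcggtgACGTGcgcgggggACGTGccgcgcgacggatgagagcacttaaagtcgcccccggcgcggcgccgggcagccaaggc
Ldha held 3 such sites in this window, 2 of them within CACGTG, and Slc16a3 held 2. Ldha has 2 starts in RefSeq's tables, and a start with the most matches was printed. ACGTG was in 19 of 24 tested low-oxygen genes with a promoter (79.2%), in 13 of 19 glycolysis genes (68.4%) and in 27.7% of all tested genes with one. It was also in 20 of the 27 core germ cell genes (74.1%), of which 15 held it within CACGTG, and in 30.6% of the genes that rose.

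None of 44 tested genes of oxidative phosphorylation passed the test, their median log2 fold change was -0.01, and their summed level was 22218 and 21796 CPM in d4c5 and 23600 and 21407 CPM in m0. Ndufb3, a complex I subunit, was at 89.1 and 167 CPM in d4c5 and 188 and 227 CPM in m0, with a log2 fold change of 0.69 that did not reach 2-fold, and Ndufa5 varied more within groups than between them (14.6 and 135 CPM in d4c5, 28.1 and 71.6 CPM in m0).

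Of 22 tested cholesterol synthesis genes, 7 rose and none fell, with a median log2 fold change of 0.67 and a summed level of 1539 and 1513 CPM in d4c5 and 2682 and 2652 CPM in m0. Lss, which closes the sterol rings, went from 33.9 and 29.1 CPM to 109.8 and 86.8 CPM, a log2 fold change of 1.64 ± 0.24 (SE, adjusted p = 1.47e-06). Cyp51 (33.9 and 46.8 to 88.1 and 116 CPM) and Nsdhl (23.9 and 18.3 to 56.2 and 47.6 CPM), which trim methyl groups from the sterol, had log2 fold changes of 1.34 and 1.29. Fdps, Msmo1 and Insig1 also rose. The count was 4 without d4c5 replicate 1 and 4 without m0 replicate 2, and calls were lost for Cyp51 and Insig1 without d4c5 replicate 1 or m0 replicate 2 (adjusted p = 0.0738 to 0.722) and Msmo1 without d4c5 replicate 2 (adjusted p = 0.0724).

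Some genes of protein folding in the endoplasmic reticulum (ER) fell. Proteins that enter the ER are folded there by chaperones and disulfide isomerases, and unfolded protein activates the transcription factor XBP1, which raises these genes. Of 33 genes on a list drawn up after the falls of Hspa5, Manf and Pdia6 were seen, 11 fell and none rose, with a median log2 fold change of -0.63 and a summed level of 6765 and 6931 CPM in d4c5 and 3828 and 4174 CPM in m0. The choice of the list after the values means that this count supports nothing by itself. The count was 5 without d4c5 replicate 1 and 7 without m0 replicate 2, 4 with DESeq2 on the 4 libraries and 3 in a fit of the 18 libraries of the culture.

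Hspa5, the chief ER chaperone BiP, was at 828 and 1047 CPM in d4c5 and 379 and 481 CPM in m0, a log2 fold change of -1.12 ± 0.23 (SE, adjusted p = 0.00122). Pdia6, a disulfide isomerase, was at 829 and 774 CPM in d4c5 and 369.7 and 366 CPM in m0, a log2 fold change of -1.12 ± 0.14 (SE, adjusted p = 8.19e-08). Manf, a secreted factor that binds BiP, went from 687 and 508 to 213 and 212 CPM, a log2 fold change of -1.49 ± 0.19 (SE, adjusted p = 6.83e-08). These 3 are among the 5 genes with the largest fall in CPM.

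Xbp1 itself went from 138 and 102 CPM to 47.9 and 44.5 CPM, a log2 fold change of -1.37 ± 0.25 (SE, adjusted p = 0.00014). The calls of Xbp1, Manf and Pdia6 held without any single library. The other members that fell were Selenos, Derl3, Pdia5, Slc35b1, Tmed3, Txndc11 and Sec11c, with log2 fold changes between -1.27 and -1.07. The threshold was missed by Hspa5 without d4c5 replicate 2 or m0 replicate 1 (adjusted p = 0.0627, log2 fold change -0.98), Selenos without d4c5 replicate 1 (adjusted p = 0.11), Derl3 without d4c5 replicate 1, m0 replicate 1 or m0 replicate 2 (adjusted p = 0.066 to 0.141), Pdia5 without d4c5 replicate 1 or m0 replicate 2 (adjusted p = 0.0508 to 0.125), Slc35b1 without d4c5 replicate 1 or m0 replicate 2 (log2 fold change -0.88 and -0.94), Tmed3 and Sec11c without d4c5 replicate 1 or m0 replicate 1 (adjusted p = 0.0609 to 0.301) and Txndc11 without any one of the 4 libraries (adjusted p = 0.0743 to 0.232). In the earlier list of 21 tested amino acid and ER stress genes, Hspa5 and Xbp1 fell and none rose.

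The promoters of Hspa5 and Pdia6 carry the ER stress response element, which is CCAAT and CCACG with 9 bases of any kind between them, searched on both strands. They are given from RefSeq's tables on GRCm38.p6, Hspa5 at chr2:34771840-34772139 and Pdia6 at chr12:17266339-17266638, both on the plus strand, with the element in capitals.
Hspa5: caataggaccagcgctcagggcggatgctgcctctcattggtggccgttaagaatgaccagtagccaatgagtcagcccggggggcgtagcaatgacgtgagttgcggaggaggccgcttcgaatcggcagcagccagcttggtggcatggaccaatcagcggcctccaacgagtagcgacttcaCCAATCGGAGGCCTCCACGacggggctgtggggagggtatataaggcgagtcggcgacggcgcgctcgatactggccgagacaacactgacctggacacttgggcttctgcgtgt
Pdia6: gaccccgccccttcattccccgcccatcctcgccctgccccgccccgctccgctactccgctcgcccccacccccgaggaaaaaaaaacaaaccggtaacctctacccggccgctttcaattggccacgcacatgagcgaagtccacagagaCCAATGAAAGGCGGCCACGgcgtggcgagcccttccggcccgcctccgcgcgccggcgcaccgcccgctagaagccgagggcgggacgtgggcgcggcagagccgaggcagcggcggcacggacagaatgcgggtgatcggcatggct
The element was in the promoters of 3 of 63 genes that fell (4.76%), in 1 of 284 that rose (0.352%) and in 19 of 12535 tested genes (0.152%). Of the 28 listed ER genes with a promoter, 9 held it. These genes are known for the element, and the match says nothing of the factor's activity here.

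Early response genes gave 5 rises and 1 fall among 24 tested immediate early and heat shock genes. Egr1, a transcription factor switched on within minutes of a signal, was at 4.65 and 0.632 CPM in d4c5 and 45.3 and 82.6 CPM in m0, a log2 fold change of 4.61 ± 0.39 (SE, adjusted p = 1.69e-13). Fos was at 9.31 and 2.53 CPM in d4c5 and 26.2 and 46 CPM in m0, a log2 fold change of 2.63 ± 0.62 (SE, adjusted p = 0.00876). Fosb had no read in d4c5 and 2.55 and 9.41 CPM in m0, at least 6.51-fold (adjusted p = 0.0101), and Fosl2 rose from 2 reads to 22, 9.76-fold (95% counting interval 2.4 to 85.6). Per the labels' protocols, d4c5 cells were released with TrypLE and reconstituted testes with trypsin. The labels do not tie m0 to a point of the latter culture, so the dissociation may differ between the groups. Its part in these values was not tested.

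Hspb1, a small heat shock protein gene, went the other way, from 434 and 291 CPM to 106 and 55.4 CPM, a log2 fold change of -2.18 ± 0.37 (SE, adjusted p = 0.000113). The count of 5 rises was 2 without d4c5 replicate 1, 2 without d4c5 replicate 2 and 1 without m0 replicate 2, where Egr1 was called in every fit. The test did not call Fos without d4c5 replicate 2 or m0 replicate 2 (adjusted p = 0.147 to 0.163), Fosb without d4c5 replicate 1, d4c5 replicate 2 or m0 replicate 2 (adjusted p = 0.0906 to 0.263), Fosl2 without d4c5 replicate 1 or m0 replicate 2 (adjusted p = 0.304 to 0.459) and Ier3 without any one of the 4 libraries (adjusted p = 0.102 to 0.208).

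Signalling genes moved singly. In the FGF, GDNF and ERK list, Egr1 and Etv4 rose and the receptor gene Fgfr1 fell among 17 tested. Etv4, a target of ERK, had 2 reads in d4c5 against 26 in m0 (11.5-fold, 95% counting interval 2.89 to 100.3), and Fgfr1 went from 254 and 167 CPM to 99.6 and 86.8 CPM, a log2 fold change of -1.18 ± 0.21 (SE, adjusted p = 0.00011). In the BMP, TGF-beta, WNT and Notch list, Tgfbi and Tcf7 rose and Id2 fell among 23. Tgfbi, a matrix gene induced by TGF-beta, went from 0 reads to 10.2 and 28.8 CPM (at least 21-fold), Tcf7, a WNT effector, from 38.6 and 31.6 to 102 and 70.6 CPM, and Id2, a target of BMP, from 25.3 and 22.1 to 4.47 and 5.75 CPM (log2 fold change -2.19 ± 0.59 (SE, adjusted p = 0.0205)). The threshold was not reached by Etv4 without d4c5 replicate 2 (adjusted p = 0.118), Fgfr1 without d4c5 replicate 1 (log2 fold change -0.88), Tcf7 without m0 replicate 1 (log2 fold change 0.97) and Id2 without d4c5 replicate 1, m0 replicate 1 or m0 replicate 2 (adjusted p = 0.113 to 0.159).

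Kitl, the ligand of KIT that somatic cells of the gonad make, rose from 0 reads to 5.75 and 14.1 CPM (at least 10.6-fold), as the only one of 18 LIF and KIT signalling genes. In that list Bcl3 was at 4.65 and 6.32 CPM in d4c5 and 19.2 and 18.3 CPM in m0 (adjusted p = 0.0942) and Spp1 at 489 and 337 CPM in d4c5 and 288 and 282 CPM in m0 (adjusted p = 0.777). Of 22 adhesion and surface genes 3 rose, Itga6, the gap junction gene Gja1 (0 reads to 3.83 and 9.94 CPM, at least 7.39-fold) and Itga9 (0 reads to 1.92 and 3.66 CPM, at least 2.96-fold). No longer called were Kitl, Gja1 and Itga9 without d4c5 replicate 1, d4c5 replicate 2 or m0 replicate 2 (adjusted p = 0.0527 to 0.222), so that of these genes Itga6 was called in every such fit.

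Of 18 retinoic acid genes, 2 rose. Aldh1a1, which makes retinoic acid, went from 2 reads in d4c5 to 65.8 and 143 CPM in m0, 167-fold (95% counting interval 46 to 1386), and Cyp26b1, which breaks it down and in the fetal testis is made by somatic cells, from 0 reads to 3.83 and 13.1 CPM (at least 9.17-fold). Rgs2, which damps G protein signals, was the only one of 19 cAMP response genes to rise, from 1 read to 35 (31.1-fold, 95% counting interval 5.22 to 1261), and Pde4a and Pde4d, which break down cAMP and are targets of rolipram, did not pass (Pde4a at 9.97 and 6.95 CPM in d4c5 and 16 and 12 CPM in m0, Pde4d at 7.31 and 11.4 CPM in d4c5 and 6.38 and 4.71 CPM in m0). Calls were lost for Cyp26b1 without d4c5 replicate 1, d4c5 replicate 2 or m0 replicate 2 (adjusted p = 0.0572 to 0.147) and Rgs2 without m0 replicate 2 (adjusted p = 0.147).

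Interferon response genes gave 3 rises among 16 tested, among them B2m, the light chain of class I molecules (4.65 and 10.1 to 21.7 and 40.8 CPM, log2 fold change 2.09 ± 0.39 (SE, adjusted p = 0.000227)) and Ifi27 (19.9 and 11.4 to 40.2 and 42.4 CPM, log2 fold change 1.40 ± 0.30 (SE, adjusted p = 0.0016)). The threshold was missed by B2m without m0 replicate 2 (adjusted p = 0.0777) and Ifi27 without d4c5 replicate 2 (adjusted p = 0.11). None of 16 p53 target genes passed, with Pmaip1 at 1.33 and 5.69 CPM in d4c5 and 17.2 and 12.6 CPM in m0 (adjusted p = 0.0589) and Eda2r at 40.6 and 41.1 CPM in d4c5 and 21.7 and 17.8 CPM in m0 (adjusted p = 0.323).

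Among imprinted genes 2 of 26 tested rose and 1 fell. The maternally expressed RNA Meg3 went from 7.98 and 13.9 CPM to 38.9 and 61.2 CPM, a log2 fold change of 2.19 ± 0.44 (SE, adjusted p = 0.000958), and Sgce rose from 1 read to 17 (15.1-fold, 95% counting interval 2.36 to 630.3). Phlda2, which limits placental growth, went from 246 and 222 to 58.1 and 65.4 CPM, a log2 fold change of -1.92 ± 0.30 (SE, adjusted p = 4.95e-06), and its call held without any single library. The test did not call Meg3 without d4c5 replicate 1 or m0 replicate 2 (adjusted p = 0.0602 to 0.0714) and Sgce without d4c5 replicate 1, d4c5 replicate 2 or m0 replicate 2 (adjusted p = 0.123 to 0.351).

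Of 7 tested Rhox genes, X-linked homeobox genes of reproductive tissue, Rhox8 rose (0 and 2.53 to 9.58 and 34 CPM, log2 fold change 4.05 ± 1.01 (SE, adjusted p = 0.0135)) and Rhox6 fell (1656 and 1164 to 736 and 656 CPM, log2 fold change -1.02 ± 0.27 (SE, adjusted p = 0.0213)). Rhox6 has a near-identical paralog in Rhox9, and the split of their reads is not stated in the sources used here. The threshold was not reached by Rhox8 without d4c5 replicate 1 or m0 replicate 2 (adjusted p = 0.21 to 0.303) and Rhox6 without d4c5 replicate 1, m0 replicate 1 or m0 replicate 2 (adjusted p = 0.0767 to 0.264). None of 17 Hox genes passed.

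Chromatin genes gave 1 rise in each of 2 lists, where 2.29% of all tested genes rose, so these counts say little of the lists. Kdm5b, which removes methyl groups from H3K4, went from 38.6 and 26.5 CPM to 61.9 and 79.5 CPM (log2 fold change 1.13 ± 0.21 (SE, adjusted p = 0.000171)), as 1 of 18 H3K9 and H3K4 modifiers. In that list the demethylase gene Kdm4b was at 16 and 16.4 CPM in d4c5 and 42.8 and 24.6 CPM in m0 and Kdm3a at 83.8 and 67 CPM in d4c5 and 128 and 118 CPM in m0, and neither passed. Yaf2, of a Polycomb complex, rose from 2.66 and 9.48 to 23 and 9.41 CPM (log2 fold change 1.35 ± 0.39 (SE, adjusted p = 0.0324)), as 1 of 23 Polycomb genes. Its libraries overlapped between the groups, with m0 replicate 2 just below d4c5 replicate 2. E2f6, which directs a Polycomb complex to germ cell genes, was at 41.2 and 47.4 CPM in d4c5 and 24.9 and 28.8 CPM in m0 (adjusted p = 0.11), and Phf19 at 129.7 and 159 CPM in d4c5 and 86.2 and 97.8 CPM in m0 (adjusted p = 0.249). No longer called were Kdm5b without d4c5 replicate 2 or m0 replicate 2 (log2 fold change 0.85 and 0.90) and Yaf2 without d4c5 replicate 1 or m0 replicate 1 (adjusted p = 0.559 to 0.709).

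The lowest log2 fold changes among genes with a mean of at least 20 CPM in d4c5 are given next. Rasgrp2, an activator of the GTPase Rap1, went from 37.2 and 29.1 CPM to 3.83 and 4.18 CPM, a log2 fold change of -3.03 ± 0.43 (SE, adjusted p = 9.5e-07). Lcp1, an actin-bundling protein gene, went from 82.4 and 86.6 to 14.7 and 17.3 CPM, a log2 fold change of -2.40 ± 0.41 (SE, adjusted p = 3.61e-05). Both calls held without any single library, as did that of Hspb1.

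Car2, a carbonic anhydrase gene, was at 40.6 and 36 CPM in d4c5 and 7.02 and 4.71 CPM in m0, Prkch, a protein kinase C gene, at 57.2 and 22.1 CPM in d4c5 and 10.9 and 4.18 CPM in m0, and Pros1, the anticoagulant protein S, at 15.3 and 25.9 CPM in d4c5 and 2.55 and 6.8 CPM in m0. Pamr1 was at 26.6 and 15.8 CPM in d4c5 and 1.92 and 6.8 CPM in m0, Inava at 23.9 and 23.4 CPM in d4c5 and 3.83 and 6.8 CPM in m0 and Mt2, a metallothionein gene among the 5 with the largest fall in CPM, at 770.0 and 1685 CPM in d4c5 and 419 and 673 CPM in m0. Their log2 fold changes were -2.71, -2.43, -2.09, -2.22, -2.12 and -1.17. Calls were lost for Car2 without d4c5 replicate 1 or m0 replicate 2 (adjusted p = 0.0581 to 0.14), Prkch without d4c5 replicate 1 (adjusted p = 0.0877), Pros1 and Mt2 without d4c5 replicate 2 or m0 replicate 1 (adjusted p = 0.174 to 0.429), Pamr1 without d4c5 replicate 1 or m0 replicate 1 (adjusted p = 0.272 to 0.332) and Inava without m0 replicate 1 (adjusted p = 0.124).

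Krt18, an epithelial keratin gene, rested on 1 library. It was at 7.31 and 55 CPM in d4c5 and 5.75 and 6.8 CPM in m0, so that d4c5 replicate 1 was close to the m0 level, and the call was lost for Krt18 without d4c5 replicate 2, m0 replicate 1 or m0 replicate 2 (adjusted p = 0.0957 to 0.981). Its partner Krt8 was at 7.31 and 31 CPM in d4c5 and 5.11 and 3.14 CPM in m0 (adjusted p = 0.0545). Of 9 tested mesonephric and coelomic epithelium markers Krt18 alone fell, and Gata2 was at 87.1 and 137 CPM in d4c5 and 60.0 and 59.1 CPM in m0. Of 15 other somatic lineage markers, Gata6 rose from 1 read to 22 (19.5-fold, 95% counting interval 3.16 to 806), a call lost for Gata6 without d4c5 replicate 1, d4c5 replicate 2 or m0 replicate 2 (adjusted p = 0.144 to 0.356). Otx2 was at 8.64 and 4.42 CPM in d4c5 and 5.75 and 2.09 CPM in m0 and Nes at 24.6 and 24 CPM in d4c5 and 35.8 and 26.1 CPM in m0.

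A second comparison that shares no library with this one, germ cells of E14.5 testes against d4, was set beside it as a description. There 4032 genes were higher (25.2% of those tested) and 2242 were lower (14%), or 39.2% in all. Of the 366 genes that rose in m0, 172 were higher in E14.5 than in d4 (47.0% of the 366, and 4.27% of the 4032), and 36 were lower (9.84%). Of the 82 that fell, 41 were lower (50%, and 1.83% of the 2242) and 10 were higher (12.2%). Taken in both directions, 213 of 448 genes (47.5%) were called the same way. Strain, sort and origin differ between d4 and the E14.5 cells, and no test is attached to these shares.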

How the data were processed

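The members and gene lists were chosen with earlier results of these data known, and the list of ER folding genes after the values were seen. Read counts are the authors' deposited values, 1 file per library. Per the submitters' processing notes, TopHat2 2.0.11, Bowtie2 2.2.7, HTSeq 0.9.1 and genome build GRCm38.p6 were used, and annotation, strand setting and handling of shared reads are not stated in the sources used here, so overlapping and antisense genes cannot be told apart. The counts come from 3′ reads of amplified cDNA made from 1 ng of RNA, without correction for duplicates that is stated, so counting intervals cover counting error only.

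Of 35914 nuclear genes, the 16008 that reached 5 RPM in 2 or more of 62 libraries were kept, and mitochondrial genes, spike-ins and 5 transgene sequences were left out. edgeR 4.0.16 in R 4.3.3 (TMM, robust quasi-likelihood, 1 coefficient for each of 31 groups) gave log2 fold changes and Benjamini-Hochberg adjusted p-values over all tested genes. The 2 d4c5 and 2 m0 libraries were compared in a fit of all libraries, so that the spread is shared. Where a group had 0 reads a fold is a bound, taken against 3 reads in both its libraries together, and where it had 1 to 3 reads a ratio with an exact 95% binomial counting interval. Alternatives used DESeq2 1.42.0 and limma 3.58.1, other scalings, filters and library sets. The test was tried on simulated counts, with changes given to some of the better-expressed genes. It called 49.3% of genes given a log2 change of 1, which is the threshold itself, and 95.5% of those given 2. A list in which none passed may therefore hold changes near 2-fold. The test also called 0.424% of the 15808 genes given no change. The genes given a log2 change of 1, 2 and 3 numbered 67, 67 and 66. In this simulation false calls were thus a larger part of all calls than the adjusted p threshold of 0.05. In the data 2.29% of tested genes rose and 0.512% fell, so some of these calls may be false.

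Genes were named by rule: the 10 called genes at either end of the log2 fold changes that had a mean of 20 CPM in the higher group and no overlap of libraries, without genes known only by a number; the 5 called genes with the largest difference in CPM each way; up to 4 called members of each list, or up to 2 as values; and Ddx4, Dazl, Prdm1, Dppa3, Nanos3, Nanos2, Kit and Mki67. Other genes named were chosen after their values were seen. Some genes the rule names are not reported here. Promoters (250 bases before to 50 after the start) were searched as letters on both strands. A gene with several starts counted once, as holding a motif if any of its starts did. For a printed gene with several starts, a start with the most matches was taken.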

Additional observations from a re-analysis of the deposited data

Results flagged for a closer look

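Reads of a transgene sequence ending in an SV40 polyadenylation signal, which the comparison of nuclear genes leaves out, were at 2935 and 2044 CPM (unscaled by TMM, relative to nuclear reads) in d4c5 and 3705 and 2671 CPM in m0, while germ cells of E14.5 testes had 0 reads in both libraries. The d4 libraries had 222 and 239 CPM and the m3 libraries 3298 and 2239 CPM. Replicate 1 was the higher in d4c5, m0 and m3. Which of the reporter transgenes carries the signal is not stated in the sources used here.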

How the results depend on the processing

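The number of genes higher in m0 was 366, and it was 209 with the 18 libraries of the culture, 114 with DESeq2 on the 4 libraries, 592 with limma at a pseudocount of 1 and 702 at 0.5. The number lower was 82, and it was 23, 21, 151 and 150 in the same settings and 150 with a replicate block on the 4 libraries. Leaving out single libraries gave 188 to 283 higher and 49 to 117 lower. With the other scalings, filters, pseudocount 5 and the 4 libraries alone, both counts stayed within 1.5 times. The cause of these differences was not tested. The share called the same way in E14.5 against d4 was 47.5%, 54.1% and 37.0% with limma at pseudocounts of 0.5 and 5, and 46.6% to 53.9% without single libraries. It was not computed for fits of the 4 or 18 libraries, which lack the E14.5 libraries.

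Of 112 called genes in the table of alternatives, none changed direction, and 108 were called with RLE scaling, 111 with RPM scaling, 92 with the 4 libraries alone, 75 with 18 libraries, 61 of 111 with DESeq2, and 71, 82, 90 and 75 without d4c5 replicate 1, d4c5 replicate 2, m0 replicate 1 and m0 replicate 2. RLE scaling ended the calls of Gata6, Insig1, Pgk1 and Sgce (adjusted p = 0.057, 0.0502, 0.054 and 0.053) and RPM scaling that of Gata6 (0.055). Among named genes that were not called, leaving out single libraries moved the log2 fold change across 0 for Cdkn1c (-1.02 to 0.43), Dppa3 (-0.12 to 0.48), Kit (-0.18 to 0.54), Nanos3 (-0.44 to 0.93), Ndufa5 (-1.45 to 1.76), Prdm1 (-0.45 to 0.93) and Rb1 (-0.094 to 0.57), and limma at a pseudocount of 0.5 did so for Ndufa5 (0.000214).

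The labels give both groups replicate numbers without saying that a number marks a shared batch. With the replicate block, 349 genes were higher and 150 lower, and 300 of the 366 and 77 of the 82 were among them. Same-numbered libraries deviated together from their group means with a correlation of 0.503 over 9919 genes. With 2 libraries a group the deviation of replicate 2 mirrors that of replicate 1, so this is a hint from 1 independent pair only.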
